A study of Mus musculus with 6 samples.

Results

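The organic anion transporting polypeptides, encoded by the Slco genes, and the deiodinase Dio2 were followed through 2 fractions of GLAST positive cells from the neonatal mouse cerebellum. The members are 9 genes with 13 probes (Slco1a4, Slco1c1, Slco2a1, Slco2b1, Slco3a1, Slco4a1, Slco4c1, Slco5a1 and Dio2), of 27373 gene symbols and 55681 probes measured. All probes that the array names for these genes were taken. The family was chosen by the log2 intensities of Slco4a1, which put it among the leading genes of the ACSA-2 negative fraction in the same comparison, so that the values of Slco4a1 are given as a description without a test, and only the other 8 genes were tested.

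A+/G+ cells carry ACSA-2, an epitope of the sodium/potassium ATPase subunit encoded by Atp1b2, together with GLAST, the glutamate transporter encoded by Slc1a3. They were enriched in 1 step with magnetic beads against ACSA-2. A-/G+ cells lack ACSA-2 and carry GLAST, and were obtained by depleting cells with L1CAM, ACSA-2, CD45, PSA-NCAM or Ter119 and then selecting for GLAST. Both fractions came from pooled cerebella of either sex, with 3 arrays per fraction and 50000 cells per sample. The sample labels give the strain CD1 and postnatal days 1 to 3, whereas the methods of the study give a C57BL/6 background and days 0 and 1. For magnetic separation the methods name both wild-type and beta-actin-GFP mice, without saying which gave the array samples. No treatment is described for either fraction.

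Slco proteins move bile acids, steroid conjugates, prostaglandins, many drugs and, in several members, thyroid hormones across the plasma membrane without direct use of ATP. Thyroid hormone must enter the cell before it acts, and type 2 deiodinase, the product of Dio2, then turns the prohormone thyroxine into the active triiodothyronine. In the brain, Slco1c1 is known from capillary endothelium, choroid plexus and astrocytes, and Dio2 from astrocytes and tanycytes. The hormone is required for the layering of the postnatal cerebellum, including the maturation of Bergmann glia and Purkinje cells.

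All values are log2 fluorescence intensities after quantile normalization, and a difference is that of the means of 3 arrays each on this scale. A probe counted as past the test when its limma p, Benjamini-Hochberg adjusted over all probes, was at most 0.05. "Well above background" is the scanner software's call for a spot. The A+/G+ samples shared slide 1 and the A-/G+ samples slide 2, and an effect of the slide cannot be told apart from that of the fraction. The A-/G+ arrays were dimmer before normalization. Their 75th percentile of intensity was 56.6, 113 and 251 on replicates 1, 2 and 3, compared with 332 to 334 in A+/G+. Probes well above background numbered 18349, 21424 and 24738 on these arrays, compared with 26478 to 26664 in A+/G+. Replicate 3 was thus the A-/G+ array with the signal nearest to A+/G+. Atp1b2 exceeded its A-/G+ level by 2.16 in A+/G+ (adjusted p = 0.00725). Slc1a3 was well above background on all 6 arrays. Its A-/G+ mean was 1.19 above that of A+/G+ but not past the test (adjusted p = 0.0733). Of 7 cerebellar genes, En2, Gbx2, Zic1, Ptf1a and Atoh1 were well above background on every array, whereas En1 and Pax2 were so on none.

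The probes through which these genes were read are single 60-base oligonucleotides. The first 30 bases are printed 5′ to 3′ for the genes with the widest gap between the nearest arrays of the fractions, Slco4a1 (2.98 on the log2 scale), Slco1c1 (0.81 on its brighter probe) and Dio2 (0.28), Slco1c1 with both of its probes.
Slco4a1: gcagcttgtgtggacagtgtgtttctatgt
Dio2: aatgataactactgacgaaagagctgtctg
Slco1c1 probe 1: gcctgctttgcttttgactctaagcataac
Slco1c1 probe 2: cctaagcatggctgtactttttgttttaaa
On mm9, the build of the array's annotation, the whole Slco4a1 probe lies at chr2:180209483-180209542 on the plus strand and the Dio2 probe at chr12:91963235-91963294 on the minus strand. The Slco1c1 probes lie at chr6:141518164-141518223 and chr6:141517875-141517934 on the plus strand, 289 bases apart. No stretch of 20 bases of these 4 probes, on either strand, occurs in another probe of the array. The exon or untranslated region that each probe falls in was not analysed here.

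Slco4a1, a transporter of thyroid hormone and taurocholate, was the member with the widest separation of the fractions. It read 6.07, 5.97 and 6.35 in A+/G+ and 9.78, 10.07 and 9.32 in A-/G+ on the log2 scale, and all 6 spots were well above background. Every A-/G+ array lay above every A+/G+ array, with a gap of 2.98 between the nearest arrays. The means were 6.13 ± 0.19 (SD, n = 3) and 9.72 ± 0.38 (SD, n = 3), a difference of 3.59 or 12.1-fold. In bulk samples such as these, fewer cells of a type and less RNA per cell cannot be told apart. The medians of Slco4a1 were 13.0-fold apart, whereas those of the brighter probe of Slco1c1, next in size among the members, were 3.21-fold apart.

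The Bergmann glia list moved with Slco4a1. All 6 of its genes (Gdf10, Gria1, Gria4, Npy, Wif1 and Mybpc1) were past the test and higher in A-/G+, Gdf10 by 3.00 (adjusted p = 0.00745), and their summed linear intensity was 2950 to 3640 in A+/G+ and 14600 to 22600 in A-/G+. Over all probes, 4.64% were past the test and higher in A-/G+. The Bergmann glia list was written with earlier results of these arrays known, and its part in the Slco4a1 values was not tested. Among 15549 gene probes well above background on all arrays, the 5 genes nearest to Slco4a1 in their profile over the 6 arrays, by root mean square difference of centred log2 values, were B3galt5 (0.152), Mybpc1 (0.171), 0610040J01Rik (0.192), Gria1 (0.196) and Adamts19 (0.222). The search used the values by which Slco4a1 was chosen, so these names are a description.

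**Figure D1:**
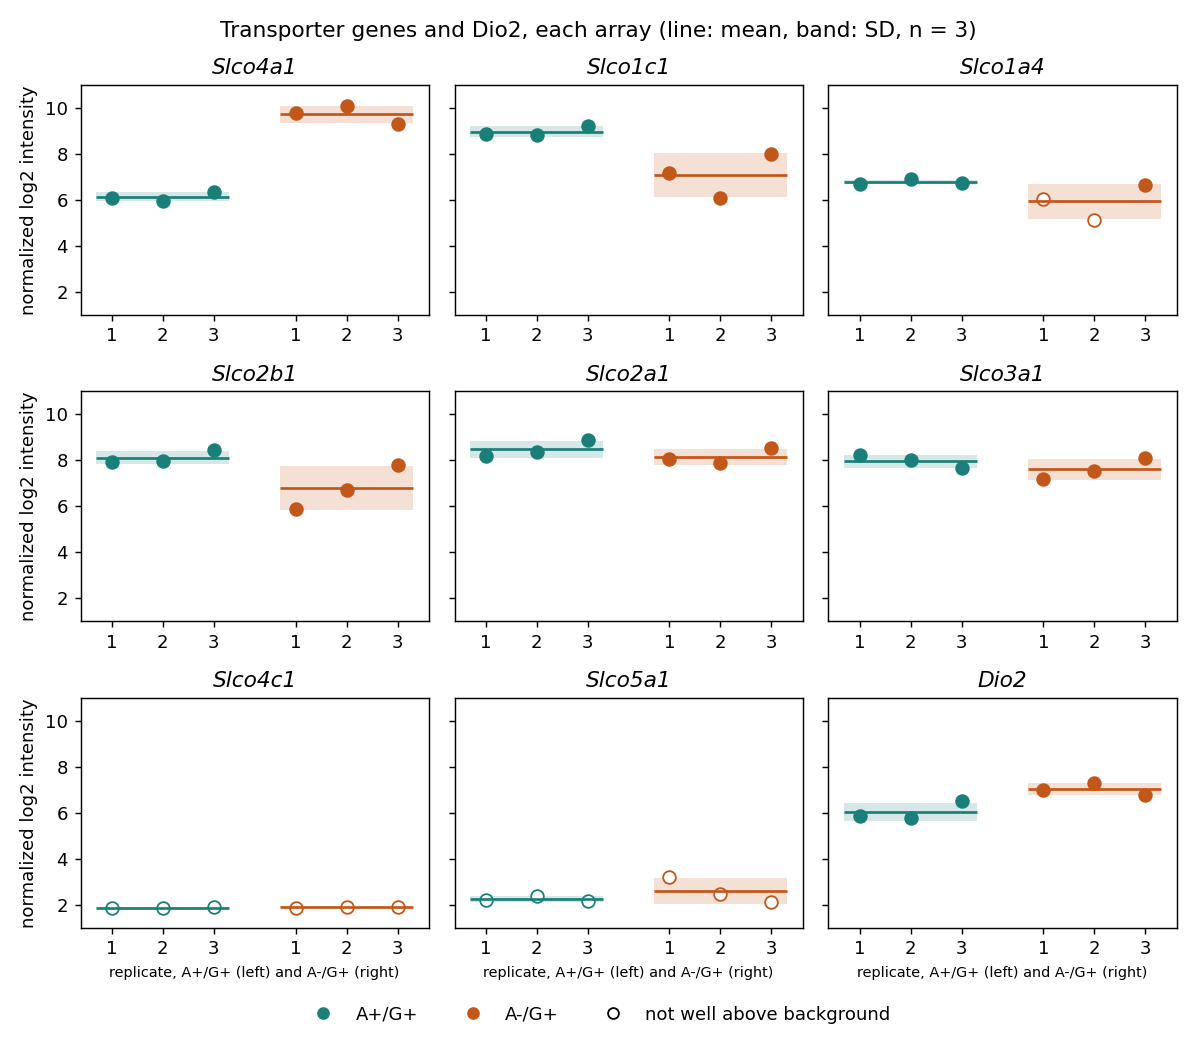
Normalized log2 intensity (vertical axis) of the brightest probe of each of the 9 genes on each array, with A+/G+ replicates on the left and A-/G+ replicates on the right of each panel, the mean as a line, the SD as a band (n = 3) and open points where a spot was not well above background. Slco4a1 and Dio2 lie higher on all A-/G+ arrays, Slco1c1, Slco1a4 and Slco2b1 lie higher on all A+/G+ arrays, and Slco4c1 and Slco5a1 stay at the lower end throughout.

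None of the other 8 genes was past the test. limma gave 0 of 8, with 2 of 8 at an unadjusted p under 0.05 (Slco1c1 and Dio2), and the methods' t-test with Benjamini-Hochberg adjustment also gave 0 of 8. Of all 55681 probes, 9.29% were past the test and 23.3% had an unadjusted p under 0.05. Among the 8 genes, the A+/G+ mean was the higher in 5 and the A-/G+ mean in 3, and the median of their differences was 0.34 (A+/G+ minus A-/G+), compared with -0.04 over all probes. The fractions did not overlap for 4 of the 8. Slco1c1, Slco1a4 and Slco2b1 lay higher on all A+/G+ arrays, as did 12.7% of all probes, and Dio2 lay higher on all A-/G+ arrays, as did 24.3%. Over the 17963 probes well above background on all 6 arrays, which include those of 5 tested members, 18.9% were past the test, 18.7% lay higher on all A+/G+ arrays and 32.8% on all A-/G+ arrays.

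Dio2, which activates thyroid hormone, was the only tested gene detected above background with a higher mean in A-/G+. Its log2 intensity was 5.85, 5.79 and 6.50 in A+/G+ and 7.01, 7.32 and 6.78 in A-/G+. The lowest A-/G+ array lay 0.28 above the highest A+/G+ array, and A+/G+ replicate 3 and A-/G+ replicate 3 were the nearest to each other. The difference was 0.99 or 1.99-fold (95% interval 0.34 to 1.65, adjusted p = 0.0832). Dio2 thus missed the threshold over all probes, whereas it passed with normexp background correction (0.62, adjusted p = 0.0349) and with dim probes filtered out (0.99, adjusted p = 0.0352). These settings also raised the share of all tested probes past the test to 12.7% and 26.1%, respectively.

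The genes nearest to Dio2 in profile over the 6 arrays were Ddx23 (0.122), Slc13a5 (0.131), Enc1 (0.134), Ube2j2 (0.161) and Atp9b (0.164). None of these 5 genes is on the astroglial list. Of the 10 genes of that list, Gfap, S100b and Gja1 were past the test and higher in A+/G+, Aldh1l1 was past the test and higher in A-/G+ by 0.64 (adjusted p = 0.0452), and 6 were not past it. In these directions, 4.65% and 4.64% of all probes were past the test. Summed over the astroglial list, the linear intensity was 145000 to 158000 in A+/G+ and 133000 to 210000 in A-/G+. The part of the list in the Dio2 values was not tested.

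Slco1c1, the high affinity transporter of thyroxine, was measured by 2 probes that gave like differences. The brighter probe read 8.86, 8.80 and 9.23 in A+/G+ and 7.17, 6.08 and 7.99 in A-/G+, and the other probe read 8.90, 8.81 and 9.31 in A+/G+ and 6.65, 5.86 and 7.95 in A-/G+. All spots were well above background, and on both probes the A-/G+ arrays were spread over a wider range than the A+/G+ arrays and stayed below all of them. The difference was 1.88 or 3.68-fold on the brighter probe (95% interval 0.55 to 3.21, adjusted p = 0.0992). On the other probe it was 2.19 or 4.55-fold (95% interval 0.72 to 3.65, adjusted p = 0.0878).

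With the processing otherwise unchanged, A-/G+ replicate 3 was the only array whose omission brought Slco1c1 past the test. Without it, the difference of the brighter probe was 2.34 (adjusted p = 0.034), and Slco2b1 likewise passed with 1.81 (adjusted p = 0.0421), so that 2 of 8 genes were past the test, both higher in A+/G+. The share of all probes past the test in that direction rose at the same time from 4.65% to 7.97%. With all arrays kept, Slco1c1 was past the test in 2 alternatives. These were normexp background correction (1.37, adjusted p = 0.0277) and dim probes filtered out (1.88, adjusted p = 0.0372). In these settings the share of all tested probes past the test was 12.7% and 26.1%, compared with 9.29% as reported. In the other 7 alternatives with all arrays Slco1c1 was not past the test, as with the methods' t-test (adjusted p = 0.169).

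Slco1a4, a carrier of organic anions and digoxin at the blood-brain barrier, read 6.71, 6.90 and 6.72 in A+/G+ and 6.05, 5.14 and 6.65 in A-/G+. In A-/G+ only replicate 3 was well above background, and it lay 0.06 below the lowest A+/G+ array. The difference of 0.83 was not past the test (95% interval -0.21 to 1.86, adjusted p = 0.319).

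Slco2b1, a carrier of steroid sulfates, read 7.94, 7.96 and 8.45 in A+/G+ and 5.88, 6.73 and 7.81 in A-/G+ on its brighter probe, a difference of 1.31 or 2.48-fold (95% interval -0.05 to 2.67, adjusted p = 0.230). All A-/G+ arrays lay below all A+/G+ arrays, replicate 3 by 0.13. The second probe was not past the test (adjusted p = 0.191) and was well above background on the 3 A+/G+ arrays only, and its A+/G+ mean of 4.23 was not above the limit of detection of the A-/G+ arrays, so that no difference or fold is given for it. The probes share 38 of their 60 bases, at chr7:106806923-106806982 and chr7:106806901-106806960 on the minus strand of mm9. Their last 30 bases are shown because the probes differ in detection, with the 22 bases that only the second probe holds in capitals.
Slco2b1 probe 1: catacagctgattattaaatttgtctctgc
Slco2b1 probe 2: gtctctgcATAATGACTCTTCCACGACAAA

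Like the means of these transporters, those of the endothelial and pericyte markers were higher in A+/G+, and the markers differed among the A-/G+ arrays. The mean of each of 14 endothelial genes was higher in A+/G+, and Cdh5, Slc2a1 and Mfsd2a were past the test. Over all probes, 4.65% were past the test in that direction. Among probes well above background on all 6 arrays, 18.9% were past it in either direction. Cldn5, a tight junction protein of brain capillaries, read 12.39, 12.67 and 13.04 in A+/G+ and 9.88, 10.15 and 12.52 in A-/G+. The summed linear intensity of the list was 19400 to 26800 in A+/G+, and 4760, 5160 and 16500 on A-/G+ replicates 1, 2 and 3. All 14 endothelial genes were highest in A-/G+ on replicate 3, the array on which Slco1c1, Slco1a4, Slco2b1 and Slco2a1 were also highest. Both Slco3a1 probes were highest in A-/G+ there, as were the neuronal genes Tubb3, Rbfox3, Stmn2, Neurod1 and Gap43 but not Snap25, Syt1 and Map2 of the same list. Slco4a1 and Dio2, which were higher in A-/G+, likewise lay nearest to A+/G+ on replicate 3. This array was also the brightest of A-/G+ before normalization. Relative to the A+/G+ mean, the median endothelial gene lay at -2.23, -2.16 and -0.21 on A-/G+ replicates 1, 2 and 3. In the same order, Slco1c1 lay at -1.79, -2.88 and -0.97, and Slco2b1 at -2.23, -1.39 and -0.31. Slco1a4 lay at -0.72, -1.63 and -0.12, and Slco2a1 at -0.43, -0.6 and 0.07. Within A-/G+, Slco1c1, Slco1a4 and Slco2a1 were thus lowest on replicate 2, whereas Slco2b1 and the endothelial sum were lowest on replicate 1. On replicate 2 the choroid plexus list too had its lowest sum (23900).

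In A+/G+ the mean was also higher for all 7 pericyte genes, with Pdgfrb, Rgs5, Vtn and Anpep past the test, beside 4.65% of all probes in that direction. Their summed intensity was 15100 to 17500 in A+/G+ and 1930 to 2970 in A-/G+, and 5 of the 7 were highest in A-/G+ on replicate 3. Microglial genes, which bear on Slco2b1, summed to 1050 to 1940 in A+/G+ and 1170 to 1290 in A-/G+. Of these genes, Tmem119 was past the test and higher in A+/G+, whereas Ptprc was well above background on no array. The choroid plexus list, which bears on Slco1c1, summed to 25300 to 39900 in A+/G+ and to 58200, 23900 and 56000 in A-/G+, with 0 of 10 genes past the test by limma, at an unadjusted p under 0.05 or by the methods' t-test, and Ttr was well above background on all arrays. The part of these cells in the values of Slco1c1, Slco1a4 and Slco2b1 was not tested.

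**Figure D2:**
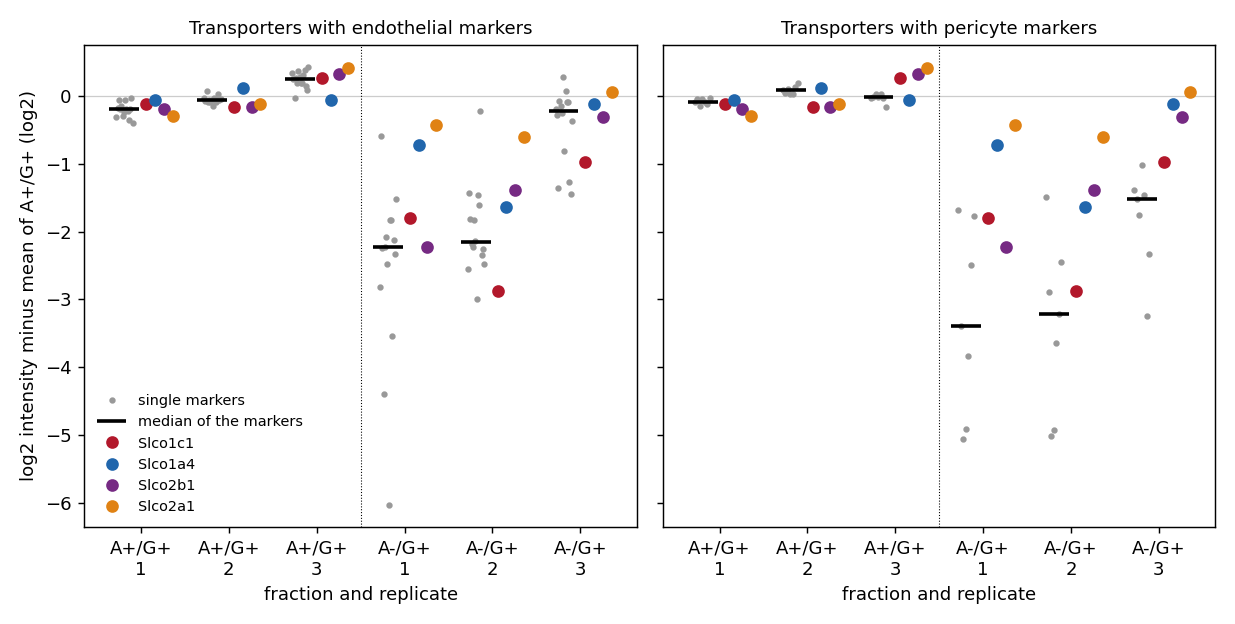
Log2 intensity minus the mean of the A+/G+ arrays (vertical axis) for Slco1c1, Slco1a4, Slco2b1 and Slco2a1 (colored points) beside the 14 endothelial markers (left) and the 7 pericyte markers (right), with single markers in gray, their median as a bar and 1 column per array. On A-/G+ replicate 3 the endothelial median is -0.21, compared with -2.23 and -2.16 on the other A-/G+ arrays, and the 4 transporters are likewise nearest to A+/G+ there.

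Slco2a1, the prostaglandin transporter, read 8.19, 8.36 and 8.90 in A+/G+ and 8.05, 7.88 and 8.56 in A-/G+. The fractions overlapped, and the difference of 0.32 was not past the test (95% interval -0.38 to 1.02, adjusted p = 0.549), which leaves room for a change in either direction. Slco3a1, a carrier of prostaglandins and thyroxine, was measured by 2 probes 6516 bases apart. The brighter probe read 8.22, 8.03 and 7.65 in A+/G+ and 7.20, 7.54 and 8.09 in A-/G+, and these ranges overlapped. The second probe read 6.93, 6.86 and 6.75 in A+/G+ and 5.23, 5.68 and 6.63 in A-/G+, where all A+/G+ arrays were higher and A-/G+ replicate 1 was not well above background. The differences of 0.36 (adjusted p = 0.535) and 1.00 (adjusted p = 0.202) were not past the test.

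Slco4c1, known from the kidney, and the orphan transporter Slco5a1 were well above background on none of the 6 arrays. The Slco4c1 probe read 1.85 to 1.91 on all 6 arrays, and the brighter Slco5a1 probe read 2.14 to 3.21. No difference is drawn from these values.

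**Figure D3:**
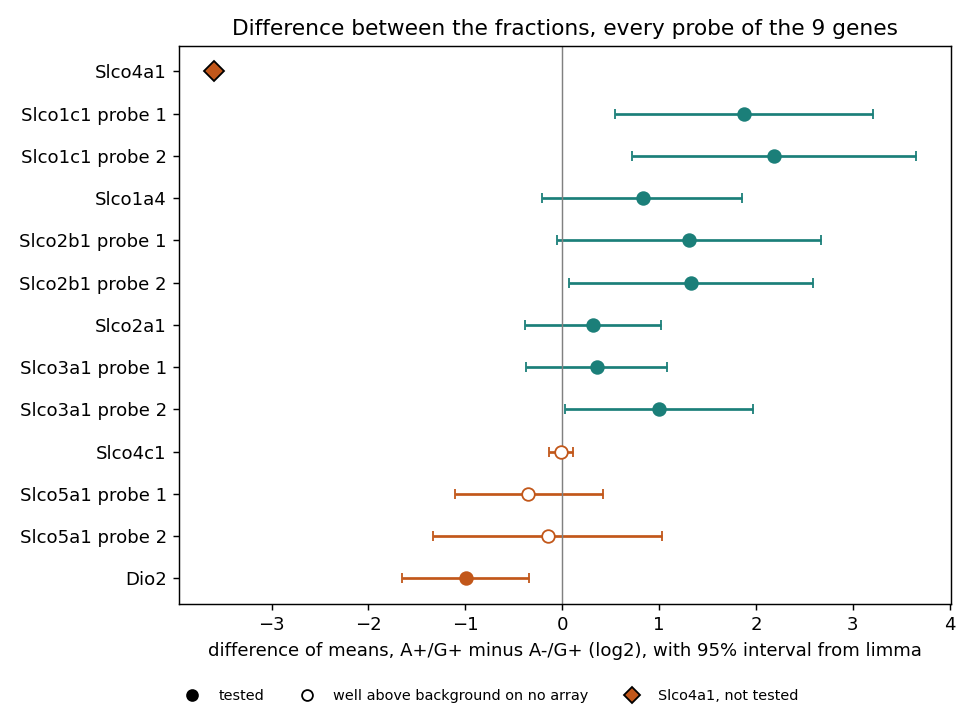
Difference of the mean log2 intensity, A+/G+ minus A-/G+ (horizontal axis, log2), for the 13 probes, with 95% limma intervals for the 12 tested probes, open circles for probes well above background on no array and a diamond without interval for Slco4a1. The second Slco2b1 probe was well above background on no A-/G+ array. Slco4a1 lies at -3.59 and Dio2 at -0.99, whereas the Slco1c1, Slco1a4, Slco2b1, Slco2a1 and Slco3a1 probes lie between 0.32 and 2.19.

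Other genes of the same pathways were read through lists written with earlier results of these arrays known. Of 56 genes, 15 were past the test, 11 with the higher mean in A+/G+ and 4 with the higher mean in A-/G+, and the median difference was 0.10. These counts stand against 4.65% and 4.64% of all probes in the same directions. The shares over all probes include many dim ones, whereas 31 of the 56 genes were well above background on all 6 arrays. Among all probes so detected, 18.9% were past the test in either direction. The count was 5, 5 and 4 without A+/G+ replicates 1, 2 and 3, and 10, 9 and 19 without A-/G+ replicates 1, 2 and 3. The calls over all probes moved likewise, from 5172 to 1598, 1251 and 1250 without an A+/G+ array and to 3847, 3253 and 9015 without an A-/G+ array. Ptgds, Ptgs2 and Slc22a7 were past the test whichever array was left out, and the other 12 were not. Of these 3, Ptgs2 and Slc22a7 were well above background on no A-/G+ array, and Slc22a7 on only 2 A+/G+ arrays.

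Of the remaining 7 Slco genes, only Slco1a5 was detected. Its brighter probe read 6.21, 6.79 and 6.39 in A+/G+ and 6.86, 7.44 and 7.39 in A-/G+, all A-/G+ arrays being higher (0.77, adjusted p = 0.122), whereas its second probe was well above background on no array. Among the other thyroid hormone transporters, 0 of 7 were past the test by limma or by the methods' t-test, with 2 of 7 at an unadjusted limma p under 0.05 (Slc3a2 and Slc7a5). Slc3a2, the heavy chain of the amino acid transporters that also carry thyroid hormone, was 0.40 higher in A+/G+ (adjusted p = 0.0712), and its light chains Slc7a5 (0.42 higher in A-/G+, adjusted p = 0.198) and Slc7a8 (0.42 higher in A+/G+, adjusted p = 0.386) were not past the test either. Slc16a10 was well above background on 1 array per fraction and Slc17a4 on none. The probes of Slc10a1 disagreed, the brighter being well above background on all 6 arrays and the other on none. The brighter read 16.88 to 17.48 and the other 2.00 to 2.15. Whether the brighter probe reads Slc10a1 was not tested, so no detection of the gene is drawn from it.

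Dio3, the deiodinase that inactivates thyroid hormone, read 3.39, 4.23 and 3.77 in A+/G+ and 1.79 to 1.82 in A-/G+. It was past the test (adjusted p = 0.0126), but only 2 A+/G+ arrays and no A-/G+ array read it well above background, and its A+/G+ mean lay under the limit of detection of the A-/G+ arrays, so that no fold is given. The call was lost without A+/G+ replicate 3. Dio1 was well above background on no array.

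Of 9 thyroid hormone receptors and their partners in the nucleus, 2 were past the test, both higher in A-/G+. Rxrg, a retinoid X receptor that pairs with thyroid hormone receptors, read 11.98, 11.89 and 11.96 in A+/G+ and 13.54, 13.64 and 12.70 in A-/G+. The A-/G+ mean exceeded that of A+/G+ by 1.35 (adjusted p = 0.0490) and on the second probe by 1.53 (adjusted p = 0.0224), and the brighter probe kept its call only when A-/G+ replicate 3 was left out among the 6 arrays. The corepressor Ncor1 was 0.47 higher in A-/G+ on its brightest probe (adjusted p = 0.0379), but its 4 probes disagreed in direction. The receptors Thra (0.24 higher in A-/G+, adjusted p = 0.247) and Thrb (0.86 higher in A+/G+, adjusted p = 0.179) were not past the test. Crym, a cytosolic protein that binds triiodothyronine, was 1.42 higher in A-/G+ (adjusted p = 0.0559), and the plasma carrier Ttr, also a choroid plexus marker, overlapped between the fractions (adjusted p = 0.541).

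Of 6 genes known to respond to thyroid hormone, 4 were past the test, 3 of them higher in A+/G+ and Thrsp higher in A-/G+. Klf9, a transcription factor, was 0.90 higher in A+/G+ (adjusted p = 0.0169), Me1, malic enzyme, 1.61 higher (adjusted p = 0.0112) and Dbp, a clock-controlled transcription factor, 0.71 higher (adjusted p = 0.0345). Thrsp, a regulator of lipid synthesis, was 1.68 higher in A-/G+ (adjusted p = 0.0132), with arrays from 8.87 to 9.29 in A+/G+ and from 10.42 to 10.97 in A-/G+. The list therefore held genes past the test in both directions.

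Genes of the synthesis, breakdown and reception of prostaglandins, which Slco2a1 and Slco3a1 carry, included 4 of 12 past the test, all higher in A+/G+. Ptgds, the lipocalin-type prostaglandin D synthase of the leptomeninges, read 15.62, 15.78 and 15.09 in A+/G+ and 11.02, 10.04 and 11.01 in A-/G+, a difference of 4.81 or 28.0-fold (adjusted p = 0.00559). Ptgs2, cyclooxygenase 2, was past the test with the higher mean in A+/G+ (adjusted p = 0.00544), but no A-/G+ array read it well above background. Its A+/G+ values of 4.35, 4.48 and 4.78 lay under the limit of detection of A-/G+ replicate 1 (5.185), so that no fold is given. Ptges2, a prostaglandin E synthase, was 0.49 higher in A+/G+ (adjusted p = 0.0466). The receptor Ptger2 was past the test (adjusted p = 0.0237) with no array well above background, and its direction turned under a shift to the 75th percentile (-0.14).

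Among 10 other organic anion and drug transporters, 4 were past the test, of which 3 were higher in A+/G+ whereas Abcc1 was lower there. Slc22a6, organic anion transporter 1, read 11.63, 11.83 and 11.53 in A+/G+ and 9.51, 8.98 and 8.16 in A-/G+, a difference of 2.78 or 6.87-fold (adjusted p = 0.0182). Slc22a7 was past the test (adjusted p = 0.00812) without a fold, being detected on 2 A+/G+ arrays only. Abcg2, the breast cancer resistance protein, was 0.77 higher in A+/G+ (adjusted p = 0.0224) and Abcc1, multidrug resistance protein 1, was 0.47 higher in A-/G+ (adjusted p = 0.0272). Slc22a8, the transporter closest to Slc22a6 in function, was 1.53 higher in A+/G+ (adjusted p = 0.0935), and Abcb1a, P-glycoprotein of the blood-brain barrier, was 1.91 higher (adjusted p = 0.179).

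Meningeal genes moved with Ptgds and Slc22a6. Each of 8 such genes had its higher mean in A+/G+, and Lum, Slc6a13 and Foxc1 were past the test, beside 4.65% of all probes in that direction. The summed intensity of the list was 86700 to 105000 in A+/G+, and 42500, 29200 and 14000 on A-/G+ replicates 1, 2 and 3. In A-/G+ Slc22a6 followed that order (9.51, 8.98 and 8.16), whereas Ptgds did not, reading 11.02, 10.04 and 11.01. Their part in the values of Ptgds and Slc22a6 was not tested.

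**Figure D4:**
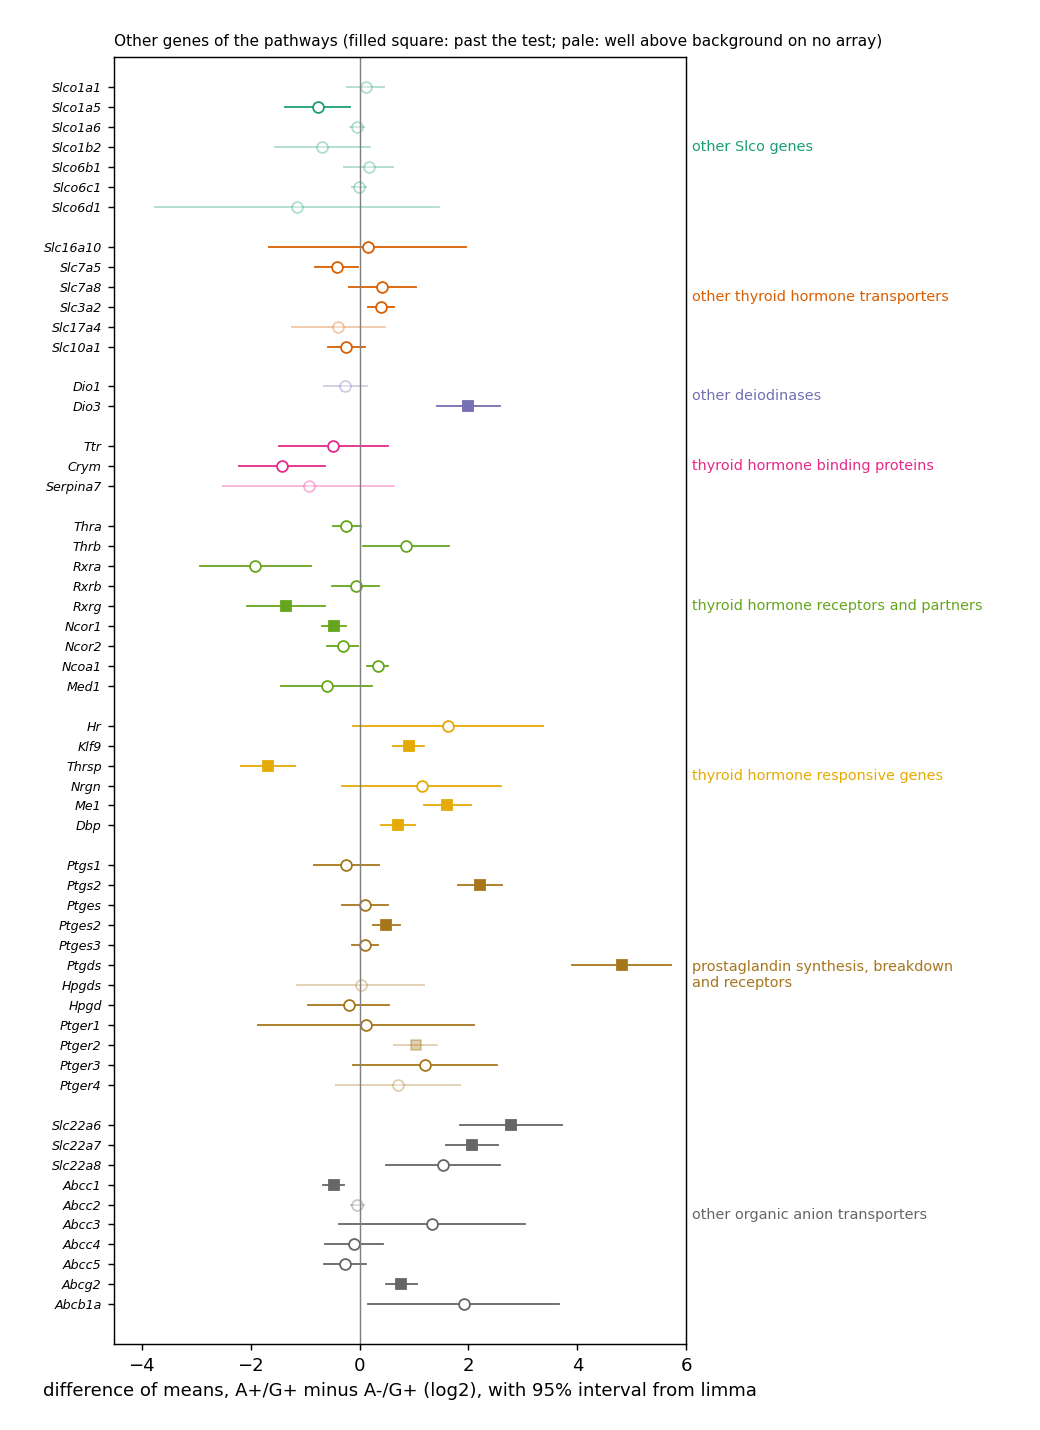
Difference of the mean log2 intensity, A+/G+ minus A-/G+ (horizontal axis, log2, with 95% limma intervals), for the brightest probe of 55 of the 56 other genes in 8 lists, with filled squares for genes past the test and pale symbols for genes well above background on no array. The 15 filled squares fall on both sides of 0, 11 to the right and 4 to the left, and Ptgds lies farthest to the right at 4.81.

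For Slco1a4, Slco1c1, Slco2a1, Slco2b1, Slco3a1 and Dio2, the sign was the same in the 11 alternatives that can move a difference of means, which included another scaling, another background correction, the table of the authors and each array left out. The other 4 (the methods' t-test, trend and robust variance, the replicate block and the filter on dim probes) leave the difference as it is and bear on the test alone, and the mean of a gene's probes leaves it so for genes with a single probe. The difference of Slco1c1 ranged from 1.37 to 2.34 and that of Dio2 from -1.22 to -0.62 (A+/G+ minus A-/G+). Slco4a1, without a test, ranged from -3.79 to -2.78 over its 11 alternatives.

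**Figure D5:**
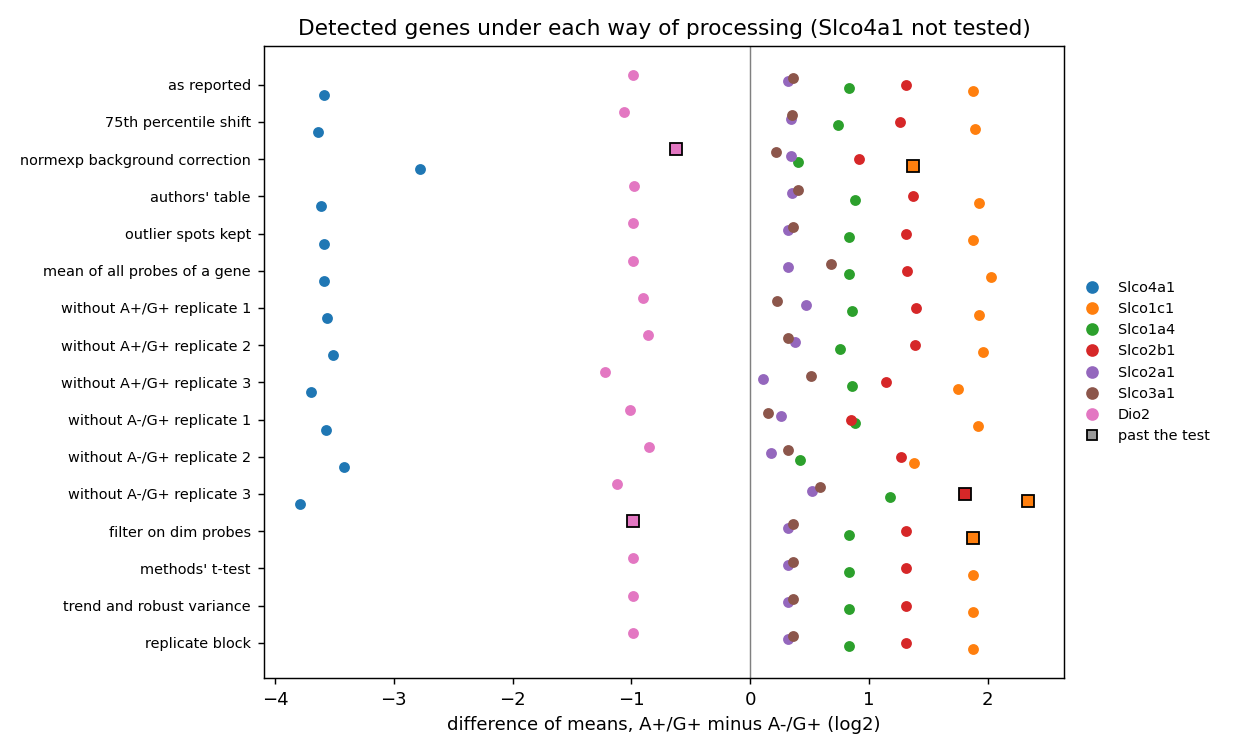
Difference of the mean log2 intensity, A+/G+ minus A-/G+ (horizontal axis, log2), of the 7 detected genes under each way of processing (rows), with squares where an adjusted p was at most 0.05. Slco4a1 and Dio2 stay left of 0 and the other 5 genes right of it in every row, and Slco1c1, Slco2b1 and Dio2 carry squares in some rows.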

How the data were processed

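Agilent 8x60K mouse arrays with 1 color (Cy3) were read for 3 A+/G+ and 3 A-/G+ samples of 50000 sorted cells. The authors deposited the scanner output, in which Feature Extraction 10.7.3.1 gives each spot's background-corrected intensity, and a table of quantile normalized log2 values, used as an alternative. Here the intensities were taken to log2, control spots and spots marked as outliers left out (none of a member), arrays quantile normalized and spots of a probe averaged. All 55681 probes were fitted with limma 3.58.1 in R 4.3.3, without a filter on dim probes, after the fit was tested on simulated data. The methods of the study used Student's test and also required medians at least 4-fold apart. A gene stands for its probe with the highest mean signal, and all member probes are given.

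Gene names and mm9 positions come from the array's annotation, and all 9 members and all 146 listed genes were found in RefSeq of GRCm38.p6, used for names only. The members and lists were chosen with earlier results of these data known. Named are all members, pathway genes past the test, other deiodinases, thyroid hormone receptors and transporters, markers that touch a result, the sort antigens, and the 5 genes nearest to Slco4a1 and to Dio2. Where no array of a fraction read a probe well above background, its level there is only bounded, per array by the larger of its own signal and the dimmest signal so called. Replicates are the biological triplicates of the labels, and their number limits the precision. Alternatives were a 75th percentile shift, normexp correction (offset 50), the deposited table, outlier spots kept, dim probes filtered out, the methods' t-test, trend and robust variance, the mean of a gene's probes, the replicate block, the 4-fold limit and each array left out. Some genes of the lists enter counts and sums but are not reported here by name.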

Additional observations from a re-analysis of the deposited data

How the results depend on the processing

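The number of tested members past the test was 0 of 8 and moved to 2 with normexp background correction and with dim probes filtered out (Slco1c1 and Dio2). With each array left out in turn it was 0 to 2, reaching 2 (Slco1c1 and Slco2b1) only without A-/G+ replicate 3. The difference of Slco4a1 was -3.59, moved to -2.78 with normexp correction and was -3.79 to -3.42 with an array left out. The 15 pathway genes past the test became 6 with the 75th percentile shift, 8 with the methods' t-test, 4 with medians at least 4-fold apart and 4 to 19 with an array left out. The 5172 probes past the test became 2548, 1073 and 1250 to 9015 with the methods' t-test, the 4-fold limit and an array left out. The 75th percentile shift kept 3885 probes, moved the median of all differences from -0.04 to -1.02 and the share of calls higher in A+/G+ from 50.1% to 31.6%. The cause of these moves was not tested, except that the 4-fold limit adds a condition by construction.

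The replicate number as a block gave 0 members, 0 pathway genes and 0 probes past the test. Arrays of the same number deviated together only weakly (correlations 0.088, 0.056 and 0.006), compared with -0.075 to 0.036 for arrays of other numbers. The numbers were not taken to pair the samples, but these values do not settle whether they do. The slide could not be fitted as a block, each fraction having its own slide. Lower signal over background on the A-/G+ arrays limits what can be said of genes that were dim there.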
